A study of Mus musculus with 282 samples.

Results

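A list of 8 genes known from basophils and mast cells were followed cell by cell in single granulocyte-monocyte progenitors (GMPs), progenitors of the bone marrow from which granulocytes and monocytes arise. They are 8 of the 55450 genes in the count tables: Fcer1a (ENSMUSG00000005339), Cd200r3 (ENSMUSG00000036172), Prss34 (ENSMUSG00000056399), Mcpt8 (ENSMUSG00000022157), Gzmb (ENSMUSG00000015437), Cpa3 (ENSMUSG00000001865), Ms4a2 (ENSMUSG00000024680) and Gata2 (ENSMUSG00000015053). All 8 were found in the tables. They were selected on values of these same cells, namely their detection, their summed level and their expression in the same cells by stimulus and by response class, so every comparison by stimulus or class and every overlap of cells is a description with no test.

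The cells came from bone marrow of male and female mice of 12 to 19 weeks, homozygous for GFP-p65, which puts a fluorescent tag on a subunit of the transcription factor NfkB, and heterozygous for H2BmCherry, a tagged histone. All groups share this genotype and a culture of 8 h under a confocal microscope, after which cells were picked one by one with a micromanipulator. Libraries were made by Smart-Seq2, a method that amplifies polyadenylated RNA from 1 cell. Of 282 samples on 3 plates from 2 experiments, the authors' deposited cell tables listed 238 cells, 67 from the 1-plate experiment and 171 from the 2-plate experiment. They gave each a stimulus, a response class and a cell cycle phase: 178 cells had received TNF, a cytokine that activates NfkB, and 60 were blank, read here as no cytokine. The classes with cells of both experiments in each group used below were non-responsive blank (47 cells), transient TNF (76 cells) and oscillatory TNF (56 cells), and smaller groups were non-responsive TNF (21), unclear TNF (16), sustained TNF (5) and oscillatory blank (5). The sources used here do not give the number of mice or how the classes were drawn.

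Basophils and mast cells are rare granulocytes that release stored granule contents when antigen cross-links IgE bound on the high affinity IgE receptor. Both can arise from myeloid progenitors of the bone marrow, and the transcription factor Gata2 is needed for that branch. Fcer1a encodes the IgE-binding alpha chain of the receptor and Ms4a2 its beta chain, which amplifies signalling. Cd200r3 encodes an activating receptor of the CD200 receptor family found on basophils and mast cells. Prss34 and Mcpt8 encode serine proteases of basophil granules, Gzmb encodes granzyme B, a serine protease also made by cytotoxic lymphocytes, and Cpa3 encodes a carboxypeptidase of mast cell granules that is also transcribed in early progenitors.

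The listed cells held 182301 to 3380416 reads in genes and 3672 to 10922 detected genes each. TNF cells ranged from 182301 to 3380416 reads and blank cells from 297165 to 2971468. Blank and TNF cells stood in different plate columns: of 36 plate columns with listed cells, 1 held both stimuli, so column and stimulus can hardly be told apart. Low reads of some of the genes also lay along plate rows of wells with very high reads, which bears on every share of cells with a read. No comparison used the 44 samples that the cell tables do not list. The count tables give identifiers only, and markers of the GMP and of other cell types, listed by symbol, were not analysed here, so the GMP label was not checked. Levels are given as reads or as CPM, a gene's reads per 1000000 reads in genes, in 1 cell or in the sum of a group's cells. They are not divided by gene length, so they compare cells and not genes. Reads carry no molecular identifiers, so intervals cover counting error only.

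Because Gata2 is one of the 8 genes and encodes a GATA factor, the 250 bases upstream of each annotated start were read from RefSeq (build GRCm38.p6), where all 8 symbols matched, Gata2 with 2 entries. The search was for GATAA, the core recognised by GATA factors, on both strands (TTATC on the other). The letters were present upstream of 5 of the 8 genes: 3 times for Ms4a2, 2 times for Cd200r3, and 1 time each for Fcer1a, Prss34 and Cpa3. They were not in this window for Mcpt8, Gzmb or either Gata2 entry, which says only that these letters are not in these bases. Of all 32851 promoter entries, 22.6% held the motif in the same 250 bases. Shown are both IgE receptor chains, at chr1:173227230-173227479 (minus strand) and chr19:11623720-11623969 (minus strand), and a basophil and a mast cell protease, Prss34 at chr17:25298144-25298393 (plus strand) and Cpa3 at chr3:20242182-20242431 (minus strand). Each is written 5′ to 3′ in the direction of the gene, with GATAA or TTATC in capitals. A match is a description of the letters and not a site of binding.
Fcer1a: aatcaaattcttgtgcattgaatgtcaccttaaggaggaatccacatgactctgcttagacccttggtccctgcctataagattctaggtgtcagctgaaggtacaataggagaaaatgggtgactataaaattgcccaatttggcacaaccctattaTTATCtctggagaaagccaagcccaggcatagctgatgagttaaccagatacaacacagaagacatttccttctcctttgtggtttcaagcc
Ms4a2: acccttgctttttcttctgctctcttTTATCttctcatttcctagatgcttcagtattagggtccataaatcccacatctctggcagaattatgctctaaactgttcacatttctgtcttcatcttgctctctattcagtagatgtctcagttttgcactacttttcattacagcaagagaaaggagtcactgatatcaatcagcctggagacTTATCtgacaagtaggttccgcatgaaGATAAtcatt
Prss34: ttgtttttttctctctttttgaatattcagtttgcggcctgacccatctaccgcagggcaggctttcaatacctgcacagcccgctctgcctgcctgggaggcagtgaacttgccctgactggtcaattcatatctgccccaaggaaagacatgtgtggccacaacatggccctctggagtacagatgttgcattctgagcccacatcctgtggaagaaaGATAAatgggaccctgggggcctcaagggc
Cpa3: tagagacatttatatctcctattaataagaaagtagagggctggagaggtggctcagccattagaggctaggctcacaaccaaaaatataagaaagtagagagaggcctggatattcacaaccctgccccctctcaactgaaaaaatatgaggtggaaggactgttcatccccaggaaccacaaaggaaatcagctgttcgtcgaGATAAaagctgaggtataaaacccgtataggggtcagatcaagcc

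Reads of the IgE receptor alpha chain were found in 6 of 238 cells, and all 6 were blank. The Fcer1a counts were 197 and 21 reads in wells C10 and C9 of the 1-plate experiment, 55 reads in E12 of Plate1 of the 2-plate experiment, and 83, 13 and 5 reads in C3, A4 and G1 of its Plate2. The authors classed 5 of these cells as non-responsive and E12 as outlier. Detection was 2 of 16 blank cells in the 1-plate and 4 of 44 in the 2-plate experiment, or 10% of all blank cells (exact 95% binomial interval 3.76% to 20.5%). Among TNF cells it was 0 of 178, which allows a share of up to 1.69% taken as 3 cells of the total, or 2.05% by the exact interval. The blank sum stood at 14.3 CPM in the 1-plate and 2.02 CPM in the 2-plate experiment. Against a floor of 3 reads over the TNF cells, the summed TNF level was at least 332-fold lower over both experiments, and at least 215-fold and 135-fold lower in each. C10 held 197 of the 218 reads in the 1-plate experiment, and without it these bounds were 158-fold over both and 22.03-fold in that experiment. Without C3 the bound in the 2-plate experiment was 64.5-fold. The floor counts reads and not cells, and 1 cell held up to 197 reads, so these bounds describe the sums of these cells only. They are no limit for other cells. The intervals for the share of cells with a read, up to 2.05% for TNF and from 3.76% for blank, lay much closer.

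The same 6 cells had reads of most of the other genes. Every cell with Fcer1a also had Mcpt8, Gzmb, Cpa3, Ms4a2 and Gata2 (6 of 6 each), while 4 of 6 had Prss34 and 3 of 6 had Cd200r3. Cells C10 of the 1-plate experiment, E12 of Plate1 and A4 of Plate2 had reads of all 8 genes, and no other cell had. C9 of the 1-plate experiment had 0 reads of Cd200r3. C3 and G1 of Plate2 had 0 of both Cd200r3 and Prss34, although C3 held 11459 reads of Gzmb, the highest count of that gene in any cell.

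The 3 cells with all 8 genes varied in their counts of each gene. C10 had 18111 reads of Mcpt8, 7771 of Prss34, 2458 of Gzmb, 2132 of Ms4a2, 1875 of Gata2, 392 of Cd200r3 and 308 of Cpa3. E12 had 2865 reads of Mcpt8, 2550 of Prss34, 3357 of Gzmb, 1731 of Ms4a2, 2315 of Gata2, 100 of Cd200r3 and 550 of Cpa3. A4 had 9899 reads of Mcpt8, 1438 of Prss34, 2779 of Gzmb, 3632 of Ms4a2, 2152 of Gata2, 182 of Cd200r3 and 485 of Cpa3. Mcpt8 thus ran from 2865 to 18111 reads among these cells and Gata2 from 1875 to 2315. Together these 3 cells, 1.26% of the listed cells, held 90.5% of all Cd200r3 reads, 70.9% of Fcer1a, 67.6% of Mcpt8 and 64.96% of Prss34. They held 32.4% of Gzmb, 29.8% of Ms4a2, 17.5% of Gata2 and 10.8% of Cpa3 reads, so the last 2 genes were carried mainly by other cells.

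**Figure D1:**
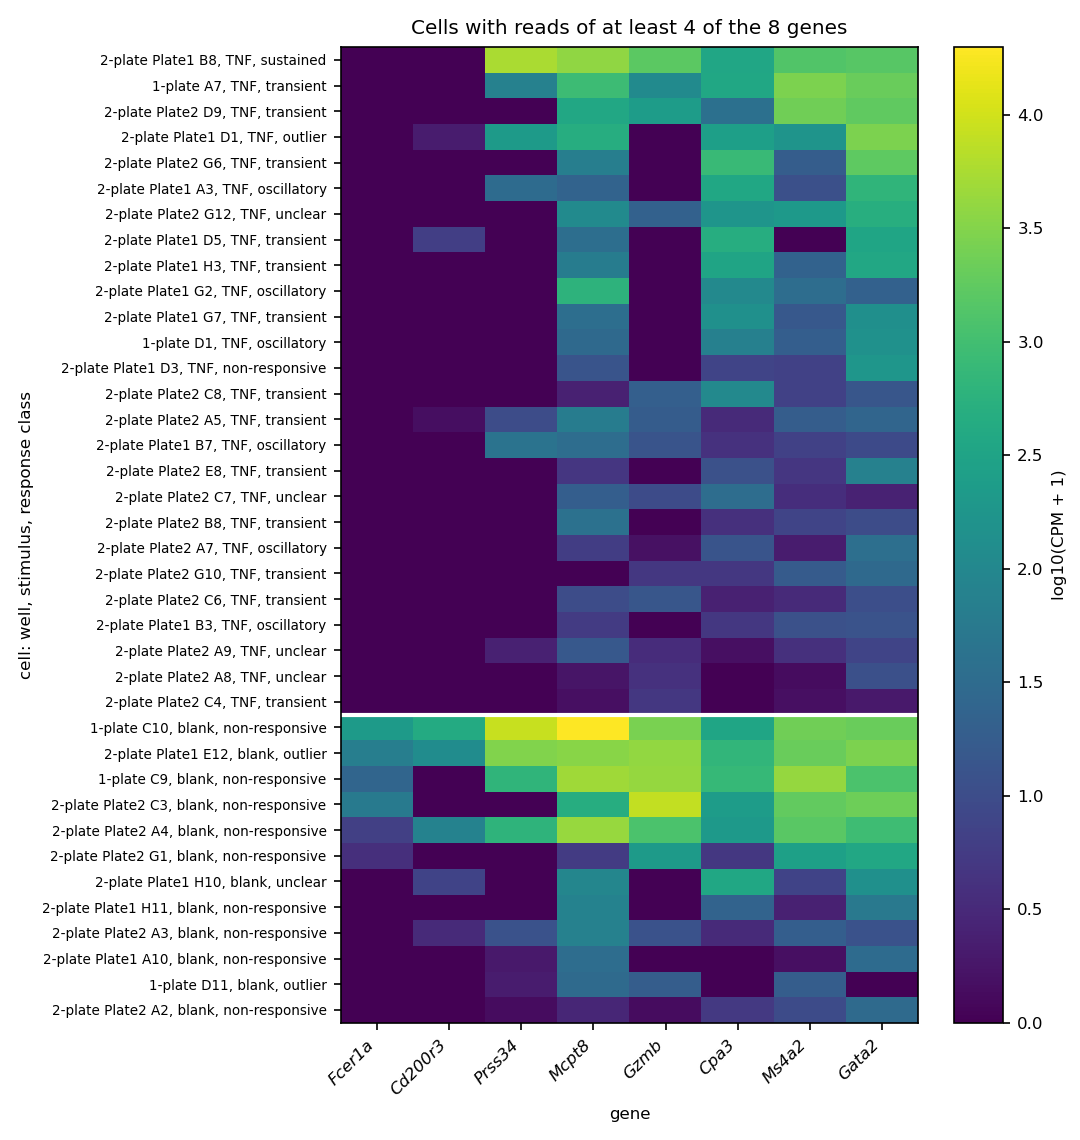
Each row is 1 of the 38 cells with reads of at least 4 of the 8 genes, named by plate and well with its stimulus and response class, each column is a gene, and the colour is log10(CPM + 1). TNF cells stand above the white line and blank cells below it; the first 6 blank rows are the only rows with Fcer1a, and 3 of them have all 8 genes.

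High levels of the other genes were also found in TNF cells. B8 of Plate1, classed as sustained, had 5274 reads of Prss34, 3526 of Mcpt8, 1505 of Gzmb, 1400 of Gata2, 1234 of Ms4a2 and 320 of Cpa3, with 0 of Fcer1a and 0 of Cd200r3. A7 of the 1-plate experiment, classed as transient, had 3800 reads of Ms4a2, 2790 of Gata2, 1202 of Mcpt8, 492 of Cpa3, 153 of Gzmb and 104 of Prss34. D9 of Plate2, also transient, had 3948 reads of Ms4a2 and 3064 of Gata2, with 642 of Mcpt8, 404 of Gzmb, 64 of Cpa3 and 0 of Prss34. Ms4a2 and Gata2 were higher in A7 and D9 than in B8, and Prss34, Mcpt8 and Gzmb were lower. E1 of Plate2, a blank cell classed as oscillatory, had 2113 reads of Cpa3 and 571 of Gata2 but 23 of Mcpt8 and 0 of Ms4a2. High Cpa3 thus occurred in a cell with few Mcpt8 reads.

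Counted over all 238 cells, 50 had reads of none of the 8 genes, 63 of 1, 46 of 2, 41 of 3, 16 of 4, 8 of 5, 8 of 6, 3 of 7 and 3 of all 8. The share of cells with at least 2 of the genes was 52.8% of TNF cells (45.2% to 60.3%) and 51.7% of blank cells (38.4% to 64.8%). The share with at least 6 was 3.37% of TNF cells (6 of 178) and 13.3% of blank cells (8 of 60). The plate-row rule described below lowered the latter to 1.69% of TNF cells and 8.33% of blank cells. At 2 genes the stimuli lay within 2 percentage points of each other and at 6 genes they stood further apart. The 14 cells with 6 or more genes held 99.6% of Prss34 reads, 97.5% of Gzmb, 90.4% of Mcpt8 and 77.8% of Ms4a2, against 49.7% of Gata2 and 27.7% of Cpa3.

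The genes were often found in the same cells, which the choice of genes used. Of the 17 cells with Prss34, 16 had Mcpt8 (94.1%), but these were 14.2% of the 113 cells with Mcpt8. Of the 34 cells with Gzmb, 28 had Gata2 (82.4%), which were 20.7% of the 135 cells with Gata2. Of the 68 cells with Ms4a2, 53 had Mcpt8 (77.9%) and 50 had Gata2 (73.5%). Mcpt8 and Gata2, the most widely detected genes, were found together in 79 cells, 69.9% of those with Mcpt8 and 58.5% of those with Gata2. Over all cells the shares were 47.5% with Mcpt8 and 56.7% with Gata2, and the 2 shares of each pair differ because the genes are found in unequal numbers of cells.

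**Figure D2:**
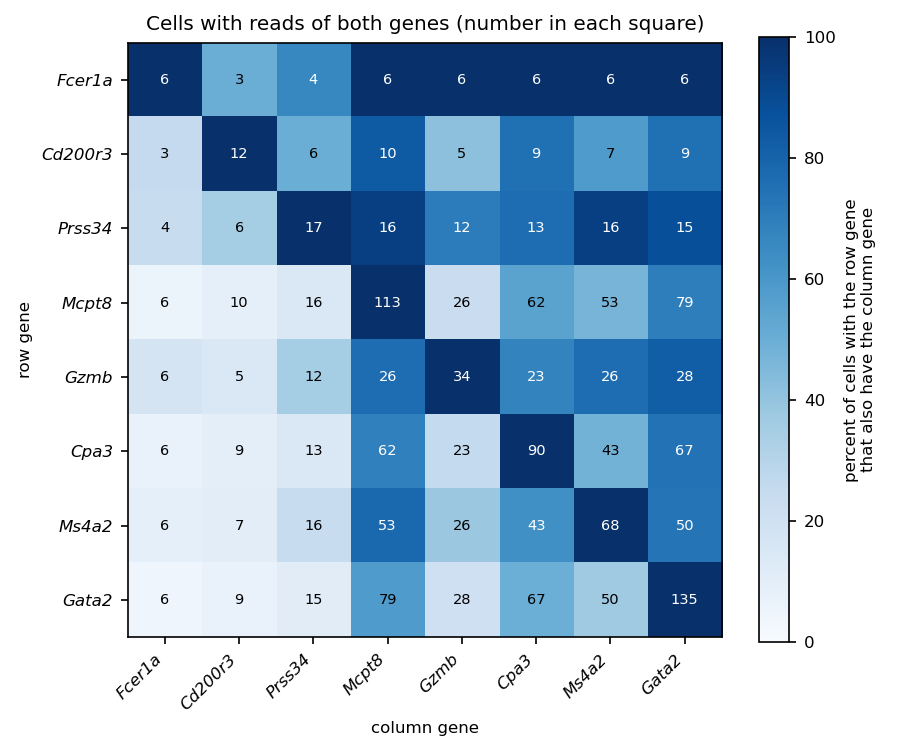
Each square gives the number of cells with at least 1 read of both the row and the column gene, the diagonal gives the cells with that gene, and the colour is the percentage of the row gene's cells that also had the column gene. The dark row for Fcer1a gives its overlap with the other genes (6 of 6 cells for 5 genes). The pale column for Fcer1a goes with its small number of cells.

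Low reads of Prss34, Mcpt8, Gzmb and Gata2 followed some rows of the plates but not others. In the 1-plate experiment Gata2 was found in 8 of 9 other wells of row A, the row of A7 with 2790 reads. These wells had at most 181 reads, and elsewhere 27 of 57 wells had the gene. In row D of Plate1, the row of D1 with 2458 Gata2 reads, it was 5 of 10 against 40 of 72. On Plate2 of the 2-plate experiment every cell with Prss34 stood in row A, the row of A4 with its 1438 reads: 5 of the 10 other wells of row A had reads, at most 24, against 0 of 77 wells in other rows. Mcpt8 was found in 10 of 10 other wells of row A, at most 167 reads, against 34 of 77 elsewhere. Gzmb was found in 8 of 10 other wells of row C, the row of C3, at most 18 reads, against 17 of 77 elsewhere. Wells A3, A5 and A9 held 1.40%, 1.42% and 0.272% of the summed reads of the 8 genes in A4. By gene, the percentage in A3 ran from 0.864% for Gzmb to 2.75% for Cd200r3, with 0 for Fcer1a. On Plate1, B7 had 81 Prss34 and 65 Mcpt8 reads beside 5274 and 3526 in B8, or 1.54% and 1.84%, yet Mcpt8 was no more frequent in the other wells of row B (4 of 9) than in other rows (36 of 73). Around some other wells with high reads the row held no more: Ms4a2 was found in 1 of 10 other wells of row D of Plate2, the row of D9, against 25 of 77 elsewhere, and Gzmb in 0 of 8 other wells of row E of Plate1, the row of E12, against 3 of 74. Cd200r3 was found in 0 of 7 other wells of row C of the 1-plate experiment, the row of C10, against 1 of 59. The cause of the low reads along some rows was not tested.

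With a rule chosen after seeing these rows, under which a cell counts for a gene only from 5% of the highest reads of that gene in its row, detection fell for the widely detected genes. The number of cells with Gata2 went from 135 to 67, with Mcpt8 from 113 to 68, with Cpa3 from 90 to 47, with Ms4a2 from 68 to 32, with Gzmb from 34 to 15 and with Prss34 from 17 to 9. Cells with Cd200r3 went from 12 to 10, and those with Fcer1a stayed at 6. The share of cells with at least 2 genes became 24.7% for TNF and 25% for blank, and that with at least 4 went from 14.6% to 6.74% for TNF and from 20% to 13.3% for blank. The rule can also remove true low expression.

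**Figure D3:**
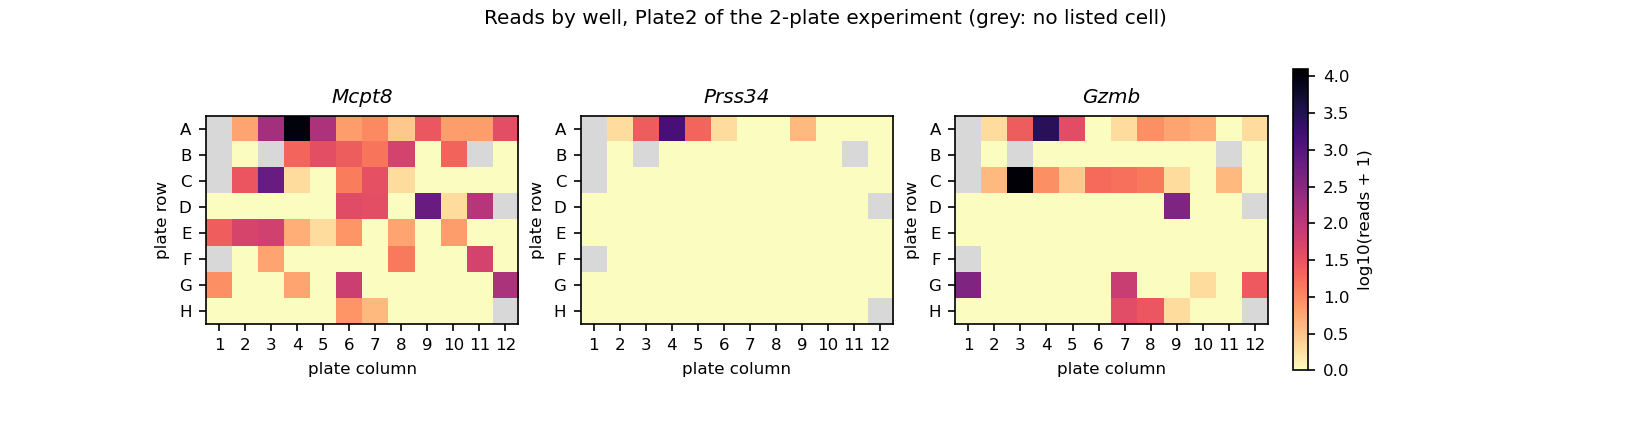
Each square is a well of Plate2 of the 2-plate experiment by plate row and plate column, coloured by log10(reads + 1) of Mcpt8, Prss34 or Gzmb, and grey where no cell is listed. Prss34 is seen in row A alone, around A4 with 1438 reads, and Gzmb is seen in most wells of row C, around C3 with 11459.

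Among the receptor genes, Ms4a2 was found in 16 of 60 blank cells (26.7%) and 52 of 178 TNF cells (29.2%). Its level ran from 0 CPM through a median of 0 to 4171 CPM in blank cells and from 0 through a median of 0 to 2831 CPM in TNF cells, so the cells overlapped. In the 1-plate experiment the summed level was 383.5 CPM in blank cells and 103.7 CPM in TNF cells. In the 2-plate experiment it was 111.3 and 30.3 CPM. Blank was 3.70-fold and 3.68-fold higher, but these ratios rest on a single TNF cell in each experiment: without A7 the first was 19.3-fold and without D9 the second was 10.4-fold. Without the highest blank cells, C9 and A4, they were 1.47-fold and 2.19-fold. The log2 fold change of TNF against blank with edgeR was -1.86, and without the cell with most reads, D9, it was -2.61.

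Cd200r3 was found in 6 of 60 blank cells (10%) and 6 of 178 TNF cells (3.37%). The counts were far apart: the highest blank cells had 392, 182 and 100 reads, and the highest TNF cell had 30. In the 1-plate experiment the summed level was 25.8 CPM in blank cells and 0.667 CPM in TNF cells. There C10 held all 392 blank reads and H3 all 30 TNF reads. Without C10 the blank sum was 0, below that of TNF cells. In the 2-plate experiment the summed level was 3.84 and 0.135 CPM, and without A4 the blank sum was 1.52 CPM. The log2 fold change was -5.03, and without C10, the cell with most reads, it was -1.14.

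Among the proteases, Prss34 was found in 9 of 60 blank cells (15%) and 8 of 178 TNF cells (4.49%). In the 1-plate experiment its summed level was 548.4 CPM in blank cells and 2.31 CPM in TNF cells, a 237-fold ratio. In the 2-plate experiment it was 52.1 and 28.1 CPM, a 1.85-fold ratio, and 93.5% of the TNF reads there came from B8. Without B8 that ratio was 28.3-fold, and without the highest blank cell, E12, it was 0.683-fold, with blank the lower. Its log2 fold change was -4.14, and -2.39 without the cell with most reads.

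Mcpt8 was found in 35 of 60 blank cells (58.3%) and 78 of 178 TNF cells (43.8%). The level ran from 0 through a median of 4.98 to 19925 CPM in blank cells, and from 0 through a median of 0 to 3828 CPM in TNF cells. Summed levels were 1478 CPM (blank) and 31.3 CPM (TNF) in the 1-plate experiment, and 185.0 and 37.4 CPM in the 2-plate experiment. The TNF sums were close to each other and the blank sums were not, with 80.6% of the 1-plate blank reads from C10. Without the highest blank cell the blank sums were 305.4 and 58.4 CPM. Without the highest TNF cells, A7 and B8, the TNF sums were 4.76 and 19.9 CPM, so their closeness rested on these cells. The log2 fold change was -3.91, and -2.77 without C10.

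Gzmb was found in 10 of 60 blank cells (16.7%) and 24 of 178 TNF cells (13.5%). By experiment the order of these shares turned, from 18.8% of blank and 1.96% of TNF cells in the 1-plate to 15.9% of blank and 18.1% of TNF cells in the 2-plate experiment. The sums were 403.1 CPM (blank) and 3.40 CPM (TNF) in the 1-plate experiment, and 233.6 and 11.1 CPM in the 2-plate experiment. The highest blank cell had 8066 CPM and the highest TNF cell, B8, 1634 CPM. Its log2 fold change was -5.54, and -4.80 without C3.

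Cpa3 was found in 21 of 60 blank cells (35%) and 69 of 178 TNF cells (38.8%). Its summed level was 64.3 CPM (blank) and 38.3 CPM (TNF) in the 1-plate experiment, and 61.2 and 24.8 CPM in the 2-plate experiment. Without C9 the 1-plate blank sum was 21.6 CPM, below that of TNF cells. The log2 fold change was -1.01, and -0.59 without E1, which alone held 17.1% of the gene's reads.

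Gata2, the transcription factor, was the most widely detected, in 38 of 60 blank cells (63.3%) and 97 of 178 TNF cells (54.5%). The level ran from 0 through a median of 6.45 to 2812 CPM in blank cells and from 0 through a median of 1.02 to 2849 CPM in TNF cells. The sums were 219.2 CPM (blank) and 125.7 CPM (TNF) in the 1-plate experiment, and 148.8 and 78.8 CPM in the 2-plate experiment. Without C10 the 1-plate blank sum was 102.0 CPM, below that of TNF cells, and without A7 the TNF sum was 65.7 CPM. The top cell held 8.70% of its reads, the lowest share of the 8 genes, and the log2 fold change was -0.84, or -0.62 without that cell.

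**Figure D4:**
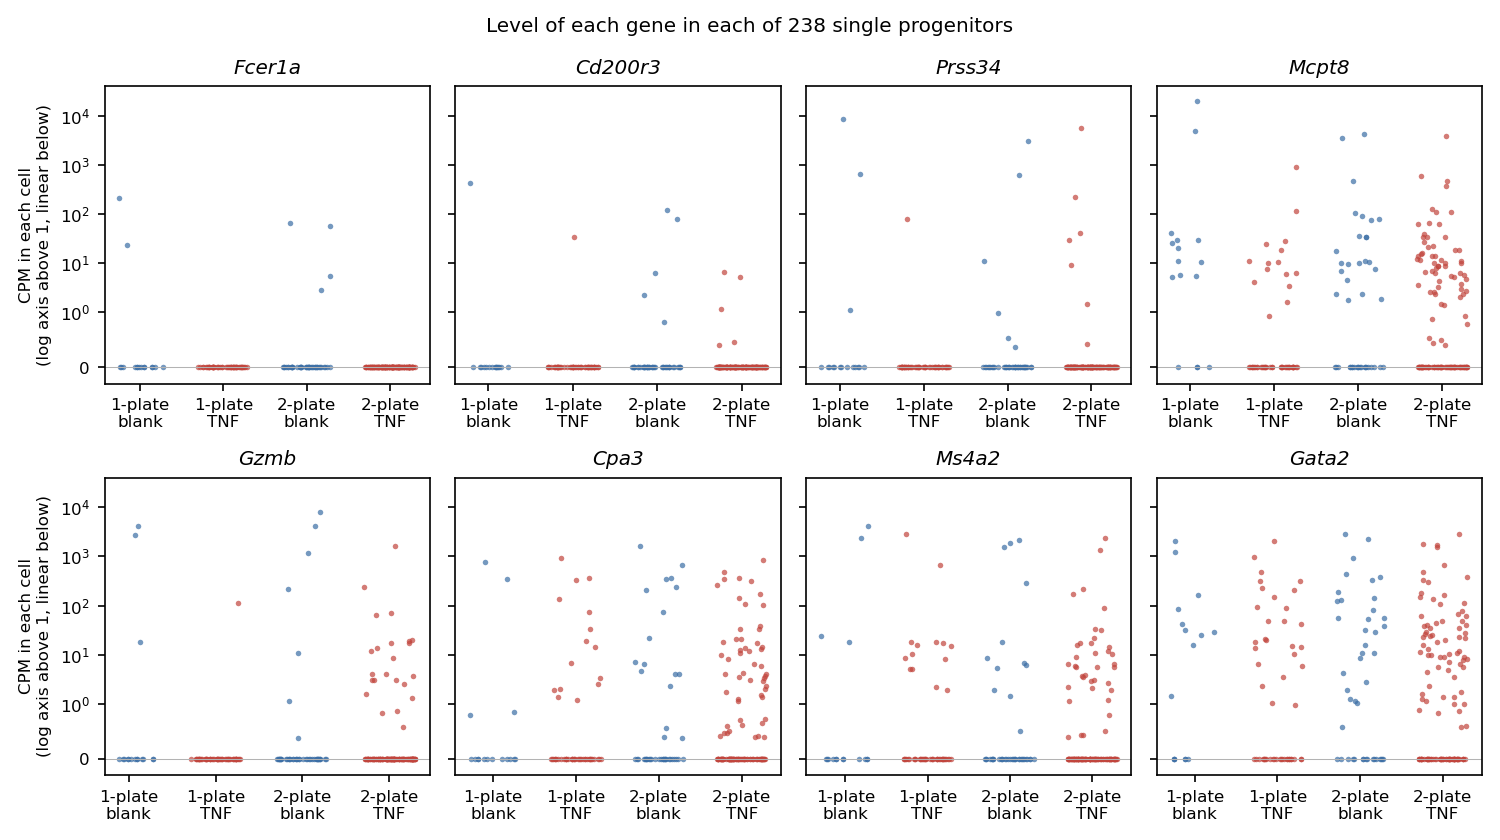
Each point is 1 of 238 cells, with the level of a gene in CPM on an axis that is logarithmic above 1 and linear below, by experiment and stimulus (blue blank, red TNF; horizontal spread only separates the points). Fcer1a has no TNF point above 0, while the highest Gata2 cell lies between 2063 and 2849 CPM in every group.

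In the fit across all genes, in which reads were summed per experiment and stimulus, all 8 genes were lower in TNF than in blank cells, with a median log2 fold change of -4.02 against 0.03 over all genes tested. At an adjusted p threshold of 0.05, 2 of 8 passed, Cd200r3 and Ms4a2, where 0.446% of the 15479 genes tested passed. The genes were chosen with this contrast known, and nothing is read from the count. With all cells 7 of 8 had an unadjusted p under 0.05, as had 1689 of the 15479 genes. DESeq2 passed 5 of 8, and 673 of all genes. Without the cell with most reads of each gene 0 of 8 passed with edgeR, although the log2 fold change of Ms4a2 was then larger in size (-2.61).

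The class sums rested on few cells: of the 40 sums by gene, class and experiment that held reads, 32 had more than 50% of them in 1 cell. Sums without the highest cell, an alternative chosen after seeing the data, are given beside those that turn on it. Of the 3 classes, oscillatory TNF cells had the lowest sums, apart from Prss34, Mcpt8 and Cpa3 in the 2-plate experiment and from Fcer1a, which had 0 reads in both TNF classes. Gata2 had 264.8 and 132.7 CPM in non-responsive blank cells of the 1-plate and 2-plate experiment, 164.3 and 103.0 CPM in transient TNF cells, and 42.6 and 29.6 CPM in oscillatory TNF cells. Within each experiment the oscillatory sum was the lowest, but without A7, which held 2790 of the 3368 reads, the 1-plate transient sum was 30.2 CPM, below the oscillatory one. The transient and blank values overlapped between experiments. Ms4a2 had 476.9 and 110.5 CPM in blank, 188.1 and 51.5 CPM in transient, and 2.14 and 2.23 CPM in oscillatory cells. The transient sums came almost wholly from A7 (3800 of 3856 reads) and D9 (3948 of 4189), without which they were 2.92 and 3.03 CPM. It was detected in 14 of 56 oscillatory cells (25%) and 24 of 76 transient cells (31.6%), so the classes differed more in the height of the highest cell, 33.8 against 2831 CPM, than in detection.

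Gzmb had 501.3 and 236.5 CPM in non-responsive blank cells, 7.47 and 5.95 CPM in transient cells, and 0 and 0.392 CPM in oscillatory cells. A7 held 100% and D9 83.5% of the transient reads, and without them the transient sums were 0 and 1.004 CPM. Cd200r3 had 32.1 and 3.04 CPM in blank, 1.46 and 0.320 CPM in transient and 0 reads in all 56 oscillatory cells. Against the same floor of reads, the summed oscillatory level of Cd200r3 was at least 216-fold lower than in blank cells over both experiments. Without C10 it was at least 70.9-fold lower. These bounds rested on 1 blank cell in each experiment. C10 held all 392 blank reads of the 1-plate experiment, so no bound remained there without it. In the 2-plate experiment A4 held 182 of 188, and without it the bound fell from 64.5-fold to 2.14-fold. Prss34 had 683.8 and 23.7 CPM in blank, 5.07 and 0.246 CPM in transient, and 0 and 2.42 CPM in oscillatory cells, so its order of the TNF classes turned between experiments. That turn rested on few cells. A7 held all 104 transient reads of the 1-plate experiment, and without it both TNF sums there were 0. In the 2-plate experiment A5 held all 20 transient reads and B7 81 of 154 oscillatory reads. These 2 wells stood in the rows of A4 and B8 described above. Without A4 the 2-plate blank sum was 0.453 CPM, below the oscillatory one. Mcpt8 had 1839 and 179.3 CPM in blank, 64.9 and 18.8 CPM in transient, and 3.71 and 25.5 CPM in oscillatory cells. Its order of the TNF classes turned likewise. In the 2-plate experiment the blank sum was 20.3 CPM without A4 and the oscillatory sum 4.18 CPM without G2.

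Cpa3 had 80.1 and 17.4 CPM in blank, 69.7 and 34.1 CPM in transient, and 4.80 and 19.1 CPM in oscillatory cells. The blank and transient values overlapped, and in the 2-plate experiment all 3 classes lay between 17.4 and 34.1 CPM. That closeness turned on single cells. Without A4, G6 and A3, the highest cell of each class, these sums were 9.96 (blank), 23.9 (transient) and 5.87 CPM (oscillatory). The log2 fold change of Cpa3 for transient TNF against blank was 0.18, and it changed sign without Plate1 of the 2-plate experiment (-0.18).

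In the 5 sustained TNF cells, all in the 2-plate experiment, reads of 6 genes came nearly all from B8, with 100% of the Prss34, Gzmb and Ms4a2 reads and 99.8% of the Mcpt8 reads of that class. In the 21 non-responsive TNF cells, Fcer1a, Cd200r3 and Prss34 had 0 reads. There Mcpt8 stood at 5.92 CPM, Gzmb at 4.09, Cpa3 at 2.40, Ms4a2 at 0.541 and Gata2 at 29.1 CPM in the sum. The non-responsive blank cells, which share the name of the class, had 452.4 CPM of Mcpt8, 280.1 of Gzmb, 27.7 of Cpa3, 170.7 of Ms4a2 and 154.4 of Gata2. At least 2 genes were found in 13 of 21 non-responsive TNF cells and 23 of 47 non-responsive blank cells, and at least 6 in 0 of 21 and 7 of 47.

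In the class fit, 4 of 8 genes passed for oscillatory TNF against non-responsive blank (Cd200r3, Gzmb, Ms4a2 and Gata2), where 2.35% of 16586 genes passed, with a median log2 fold change of -6.05. For transient TNF against the same blank cells 1 of 8 passed (Gzmb), where 0.133% of genes passed, with a median of -4.13. For oscillatory against transient TNF 2 of the 7 genes with reads passed (Ms4a2 and Gata2), where 0.199% passed, with 6 of 7 below 0 and a median of -1.81. The first 2 comparisons share their blank cells and the last shares its cells with both, and the rule used these contrasts, so nothing is read from the counts. Without Plate2 of the 2-plate experiment the edgeR counts were 0, 0 and 0. With all cells 7, 7 and 4 of the genes had an unadjusted p under 0.05, as had 2683, 1240 and 1679 of the 16586 genes. DESeq2 passed 4, 1 and 3 of the 8, and 1286, 308 and 636 of all genes.

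**Figure D5:**
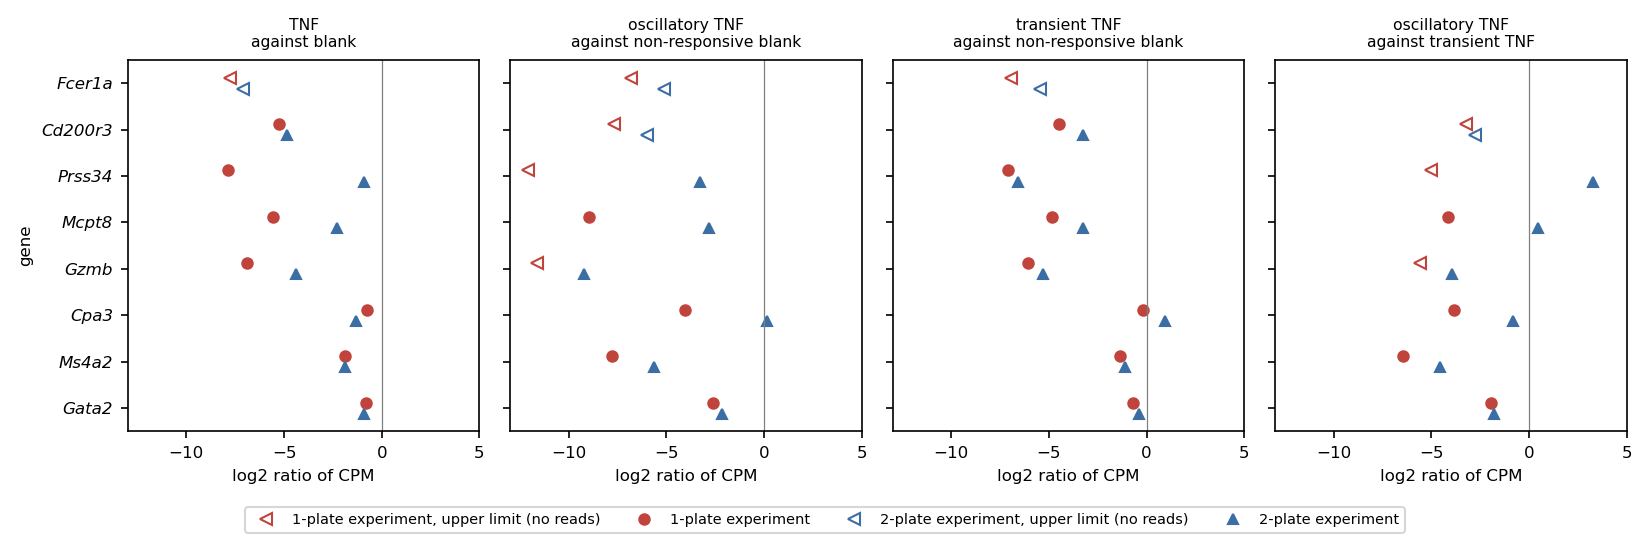
For 4 comparisons, the log2 ratio of summed CPM of each gene is given for the 1-plate (circles) and the 2-plate experiment (triangles); open symbols pointing left are upper limits where the first group had 0 reads, from a floor of 3 reads. Prss34 and Mcpt8 lie on opposite sides of 0 in the last panel, while Ms4a2 and Gata2 lie close together in the first.

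The cell cycle phase was not used to choose the genes and could be tested, with stimulus and experiment as terms. For G2M against G1, 0 of 8 genes passed with edgeR, where 1.55% of 15143 genes passed. At an unadjusted p under 0.05 it was 0 of 8, against 1870 of all genes, and with DESeq2 0 of 8, against 737. For S against G1, 0 of 8 passed with edgeR, where 2.6% passed. At an unadjusted p under 0.05 it was 2 of 8, against 2476 of the 15143 genes, and with DESeq2 1 of 8, against 1307. Gata2 stood at 111.0 CPM in G1, 94.2 in G2M and 154.1 in S. These pooled sums are highest in S, while the fit, which weighs stimulus and experiment and uses groups of at least 5 cells, gave S a value below G1. The log2 fold changes were -0.52 for G2M (edgeR adjusted p = 0.88) and -0.24 for S (edgeR adjusted p = 0.93), against medians of 0.04 and 0.00 over all genes. For S the sign turned on sums per plate (0.73) and with thinned cells (0.37). These misses do not show equal levels, since the standard errors were 0.79 and 0.86. Separate animals or cultures for the experiments are not stated. With experiment as a term, these p-values measure the spread left among sums by phase and stimulus. Most of these sums share the 2-plate experiment, so they are not independent replicates, and their spread may be technical.

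Prss34 and Fcer1a had 0 reads in the 43 cells in S, which allows a share of up to 6.98% taken as 3 cells of the total, or 8.22% by the exact interval, and were found in 11 and 5 of 128 cells in G2M and 6 and 1 of 67 in G1. For Fcer1a, at 3.91% in G2M and 1.49% in G1, no difference was detectable at this number of cells. Fcer1a had 0 reads in TNF cells of every phase, and 35 of the 43 cells in S were TNF cells. For this gene only blank cells bear on the phase: it was found in 0 of 8 in S (up to 36.9% by the exact interval), 5 of 35 in G2M and 1 of 17 in G1. Cd200r3 was found in 3 of 43 cells in S (6.98%), 6 of 128 in G2M (4.69%) and 3 of 67 in G1 (4.48%). The 2 genes at an unadjusted p under 0.05 in S were Prss34 and Fcer1a, with 0 reads there, and DESeq2 passed Prss34. Ms4a2 was found in 16 of 43 cells in S, with 97.1% of its reads there from D9 of Plate2. Without that cell its log2 fold change for S against G1 was -4.98 (edgeR adjusted p = 0.027), so its phase comparison turned on 1 cell.

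Across cells, likeness was the Spearman correlation of a gene's CPM with the mean log2(CPM + 1) of the other members within each experiment, averaged over the experiments. It is given as a description, since cells share plates and depth. Of 14614 genes with reads in at least 5 cells of each experiment, Gata2 ranked 16 (0.52), Mcpt8 24 (0.52), Cpa3 25 (0.54) and Ms4a2 80 (0.46), each against the other 7. The remaining members were in too few cells to be ranked. With a limit of 2 cells, chosen after seeing this, Prss34 ranked 419, Gzmb 530, Fcer1a 1008 and Cd200r3 3904 of 17777 genes. They had reads in 17, 34, 6 and 12 cells, so most cells had 0 reads, and the order of the ranks did not follow these numbers. Why they ranked low was not tested. Of genes outside the list, ENSMUSG00000022824 (0.69) and ENSMUSG00000105652 (0.67) had the highest likeness to all 8, and no table in use gives their symbols.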

How the data were processed

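Single-cell Smart-Seq2 libraries were deposited as whole-read counts per Ensembl mouse gene, which the authors made with SAMtools, Subread 1.5.0 and featureCounts, per the submitters' processing notes. The sources used here give no genome build, annotation or strand setting. Reads of overlapping genes or near-identical copies, such as the granule protease families, can then not be told apart. Stimulus, class and phase came from the authors' deposited cell tables. Left out were 357 columns of no listed sample. The 92 spike-in features stayed out of library sizes and tests, and 0 cells had identical columns.

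The members and lists were chosen with earlier results of these data known. All 8 members are named, and of the 10 most alike other genes the first 2 identifiers. The 55450 identifiers were in no symbol table, so marker and pathway lists set by symbol were not analysed here. Cells are not replicates, so reads were summed per experiment (n = 2) and group of at least 5 cells. Tests used edgeR 4.0.16 (R 4.3.3), TMM factors, filterByExpr, the quasi-likelihood test with experiment as a term, and Benjamini-Hochberg adjustment over all genes at 0.05, two-sided. The 4 sums by stimulus left 1 residual degree of freedom, the 10 by class 2, and the 10 by phase 5. The scripts were tested on simulated data. Detection is 1 read or more, intervals are exact (Clopper-Pearson, 95%), and floors are 3 reads. Depth was 182301 to 3380416 reads per cell. Alternatives were DESeq2 1.42.0, RLE factors, no filter, a filter of 10 CPM in 50% of sums, no experiment term, 5 reads for detection, sums per plate, a thinning to 500000 reads (211 cells, 27 too shallow), Pearson likeness and leaving out plates, an experiment or the top cell. Added after seeing the data were the plate-row rule, the 2-cell limit and summed levels without the highest cell of a group.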

Additional observations from a re-analysis of the deposited data

Results flagged for a closer look

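In the 5 sustained TNF cells of the 2-plate experiment the highest cell, B8 of Plate1, stood apart from the other 4 by a gap test (Dixon, 95%) for 6 genes: 5274 reads of Prss34, 3526 of Mcpt8, 1505 of Gzmb, 320 of Cpa3, 1234 of Ms4a2 and 1400 of Gata2. In the 5 oscillatory blank cells of that experiment the highest cell stood apart for Mcpt8 with 151 reads and for Cpa3 with 2113 reads. These were 8 of 16 such tests in 2 groups. They are a description, since cells are not replicates and the classes were used to choose the genes. For Prss34, Gzmb and Ms4a2, B8 was the only sustained cell with reads, so its gap was as wide as it could be. A gene with 0 reads in all 5 cells of a group cannot be flagged, so no share expected by chance is given. The counts of a rarely detected gene are mostly 0, which makes such gaps common.

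The 44 samples outside the cell tables, which have no stimulus or class, held 2064 reads of Cpa3 (2001 of them in 1 sample), 1883 of Gata2, 812 of Ms4a2, 668 of Mcpt8, 583 of Prss34, 104 of Gzmb and 6 of Cd200r3, all above the limit of a count of 0. Fcer1a had 0 reads there. These samples held 1805 to 1130586 reads each.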

How the results depend on the processing

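No paired analysis was possible because the replicate numbers only name wells in accession order and pair no cells, so no fit with such a term was made. The number of the 8 genes that passed for TNF against blank was 5 with DESeq2, 6 without a filter, 4 with the stricter filter, 0 without the experiment term and 6 with thinned cells. Over all genes 673 of 15479 passed with DESeq2, 367 of 26130 without a filter and 298 of 8619 with the stricter filter, against 69 of 15479 in the main fit. The genes were chosen with the stimulus and class contrasts known, so nothing is read from their counts there. Leaving out plates or the top cell gave 0 to 3. For oscillatory TNF against blank it was 2 with the stricter filter (where 732 of 8361 genes passed), 2 without the experiment term and 0 on sums per plate. It was 0 to 5 with parts left out. For transient TNF against blank it was 0 under each of these 3 settings, and 0 to 2 with parts left out. For oscillatory against transient TNF it was 0 without the experiment term and 0 on sums per plate, and 0 to 2 with parts left out. For S against G1 it was 1 with DESeq2 (where 1307 of 15143 genes passed), and 0 to 1 with parts left out.

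With parts left out, log2 fold changes changed sign for Cpa3 in oscillatory TNF against blank (-3.35 to 0.22), and in transient TNF against blank for Cpa3 (-0.18 to 1.01), Gata2 (-0.63 to 0.13) and Cd200r3 (-4.08 to 0.19). In oscillatory against transient TNF they did so for Prss34 (-6.45 to 4.03, and -0.60 without the experiment term) and Mcpt8 (-3.26 to 1.31). Gata2 in S against G1 ranged from -1.45 to 1.93, with 0.73 on sums per plate and 0.37 with thinned cells. The cause was not tested.

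At 5 reads for detection, 35.96% of TNF and 41.7% of blank cells had 2 or more genes. The row rule gave 24.7% of TNF and 25% of blank cells with 2 or more, and 6.74% of TNF cells with 4 or more. The median rank by likeness of the 4 ranked genes went from 24.5 to 11 with Pearson correlation. Over all genes, the number called ranged from 0 to 673 for TNF against blank, 34 to 1286 for oscillatory and 1 to 308 for transient TNF against blank, 0 to 636 for oscillatory against transient, 75 to 737 for G2M and 0 to 1307 for S, with DESeq2 the highest of the settings run in each. The edgeR counts of 0 came without the experiment term for TNF against blank (880 at an unadjusted p under 0.05) and oscillatory against transient (817), without Plate2 for the latter (1378), and without the 1-plate experiment for S (1582). Depth limits the rare genes: a cell with 0 reads of Fcer1a or Cd200r3 may still hold their RNA.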
